A study of Mus musculus with 48 samples.

Results

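The clustered protocadherins occupy a stretch of mouse chromosome 18 that was examined here through its open chromatin sites. The members were the merged ATAC-seq peaks centred between positions 36900000 and 38100000 (mm9), and 58 of the 114043 merged peaks met this rule, which used position alone and no measured value. The flanks used for comparison were the 160 peaks from 35 Mb up to the interval and the 178 peaks from its end to 40 Mb.

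Protocadherins are cadherin-like adhesion proteins of the cell surface, best known from neurons. The alpha and gamma clusters each consist of a row of variable first exons, every one with its own promoter, spliced to a set of constant exons shared by the cluster, while the beta genes are single-exon genes without constant exons. Each neuron switches on a small and partly random choice of the variable promoters. The choice depends on promoter DNA methylation, the boundary protein CTCF and distant enhancers. Neurites of the same neuron carry matching combinations, which lets them tell self from non-self. Small cell lung cancer cells have neuroendocrine character and express many neuronal genes. RefSeq lists 14 Pcdha, 22 Pcdhb and 21 Pcdhg protein-coding genes here, in the order alpha, beta, gamma, in an assembly of another build (GRCm38). In that order Hars, Hars2 and Zmat2 precede Pcdha1, Slc25a2 and Taf7 stand between the beta and gamma genes, and Diaph1 and Hdac3 follow. An annotation of mm9 was not used here, so no peak was given to a gene, and peaks near either end of the interval may belong to these neighbours. For the same reason the labelled tissues were not checked against marker genes.

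ATAC-seq marks accessible DNA through insertion of adapters by the Tn5 transposase. All 48 libraries came from mice of a small cell lung cancer model carrying the genotype Trp53-/-;Rb1-/-;p130-/-;R26mG, in which an adenovirus delivered Cre recombinase. In Ad-CMV-Cre the CMV promoter, active in most cell types, drove Cre, and in Ad-CGRP-Cre the promoter of the neuroendocrine peptide CGRP did. The CMV comparison set 8 libraries with amplification of Nfib, the gene of a nuclear factor I transcription factor, against 7 libraries without it. The 8 were 5 liver metastases, 1 lymph node metastasis and 2 lung tumors, and all 7 others were lung tumors, so amplification and tissue cannot be told apart. Of the 8, 2 were of preparation batch 1 and 6 of batch 3, and of the 7 others, 2 and 5. The CGRP comparison set 7 liver metastases against 11 lung tumors, 1 of which was labelled Nfib-amplified. A further 15 CMV libraries of low enrichment entered neither comparison. The ages of the mice were not given, and library titles that share a code may share an animal, so p-values may measure technical spread. The deposited tables give fitted log2 fold changes and no value per library. Depth is therefore unknown, and a change in the share of a cell type cannot be told apart from a change in accessibility per cell.

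Accessible sites were sparser in the interval than in its flanks, and unevenly placed. A density over the whole genome was not computed. It held 48.3 merged peaks per Mb, against 84.2 per Mb in the flank before it and 93.7 per Mb in the flank after it. Wherever neighbouring peaks lay over 100 kb apart the interval was split, a choice made after the positions were seen, which gave 4 blocks. Block 1 ran from 36903992 to 36963057 with 9 peaks, block 2 from 37157332 to 37657012 with 22, block 3 from 37803628 to 37840271 with 3, and block 4 from 37945637 to 38095437 with 24. The empty stretches between them measured 194, 147 and 105 kb.

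Peaks of block 2 were weak and those of block 1 strong. The mean normalised count per peak, averaged by the authors over libraries, had a median of 15.6 in block 2 and 73.5 in block 1. Blocks 3 and 4 had medians of 51.6 and 35.9, and all 114043 peaks one of 21.2. The highest mean counts of the interval belonged to the last member, chr18:38094937-38095437, at 235, followed by chr18:37965698-37966198 at 194, chr18:37974266-37974766 at 193, chr18:36961206-36961706 at 175 and chr18:36903992-36904492 at 157. No peak of block 2 exceeded 87.7.

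**Figure D1:**
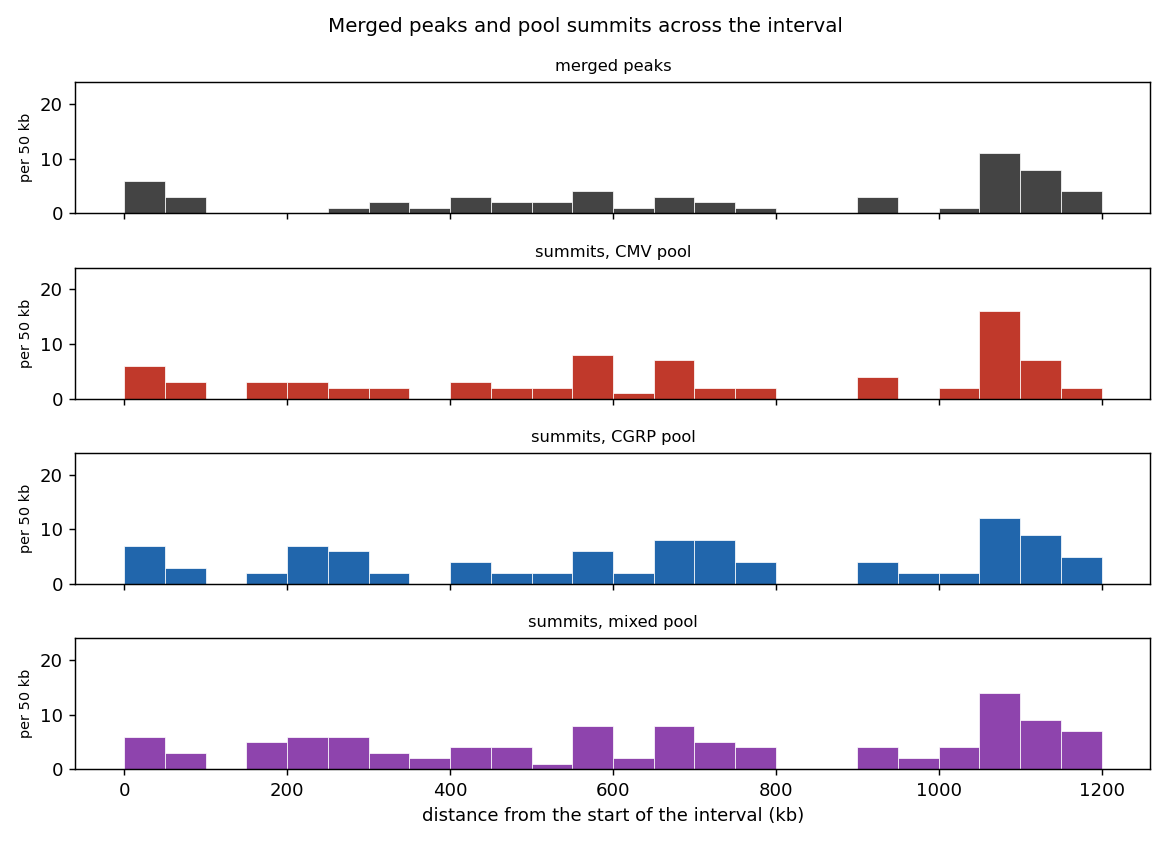
Number of merged peaks and of summits called in the CMV, CGRP and mixed pools in bins of 50 kb, by distance in kb from the start of the interval. Merged peaks reach 11 in the bin that starts at 1050 kb, and no pool has a summit in the bins that start at 100, 800 and 850 kb.

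Summits, the points of highest signal within called peaks, came from pooled libraries: a CMV pool of 19, a CGRP pool of 14 and a mixed pool of 11 CMV and 4 CGRP libraries. Of the 19 libraries in the CMV pool, 15 were those of low enrichment that entered neither comparison, and the part this has in a missing CMV summit was not tested. The interval held 77 summits of the CMV pool, 97 of the CGRP pool and 107 of the mixed pool. The empty stretch before block 3 was nearly bare in every pool, with 0 CMV, 2 CGRP and 1 mixed summits over 147 kb. The stretch before block 2 was not bare. It held 7 CMV, 12 CGRP and 13 mixed summits, and the strongest was a CGRP summit at 37152589 with a score of 116 (77.0th percentile of its list). Scores are the authors' and rank summits within a list only.

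Most members were called as accessible in all 3 pools. Of the 58 members, 44 (75.9%) held a summit of every pool within 250 bp of the centre, against 64.8% of all merged peaks, 83.1% in the flank before and 75.8% in the flank after. A CGRP summit was held by 53 members (91.4%), against 93.1% in the flank before, 84.3% in the flank after, 61.7% on the rest of chromosome 18 and 75% of all merged peaks. A CMV summit was held by 48 (82.8%), against 88.6% of all merged peaks. The share was 90% and 90.4% in the flanks and 90.8% on the rest of the chromosome. The CMV pool was preparation batch 1, the CGRP pool batch 2 and the mixed pool batch 3. Between the first pair of pools, vector and preparation batch therefore cannot be told apart. Some libraries of the CMV pool were labelled with sequencing batch 3. The strongest summits of the interval were at 38095200 in the CMV pool (score 301) and 38095196 in the mixed pool (653), both in the peak chr18:38094937-38095437, and at 36961460 in the CGRP pool (1160), in chr18:36961206-36961706.

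Few sites of the interval were called more accessible in Nfib-amplified libraries. Called or not, 27 members (46.6%) had a log2 fold change above 0, against 66.2% of all peaks. The share was 41.2% in the flank before, 61.8% in the flank after and 79.3% on the rest of chromosome 18. The authors' deposited table held 2 of 58 members (3.45%) that were raised in Nfib-amplified libraries at an adjusted p under 0.05. Across the genome 34.3% of tested peaks were raised. Lowered members numbered 10 (17.2%), against 12.2% of all peaks, and 46 members were not called. The flank before the interval had 7.50% raised and 16.2% lowered, and the flank after it 29.8% raised and 11.8% lowered. On the rest of chromosome 18, which includes the flanks, 42.2% were raised and 6.21% lowered. These shares are given as a description, without a test of the interval against its surroundings.

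**Figure D2:**
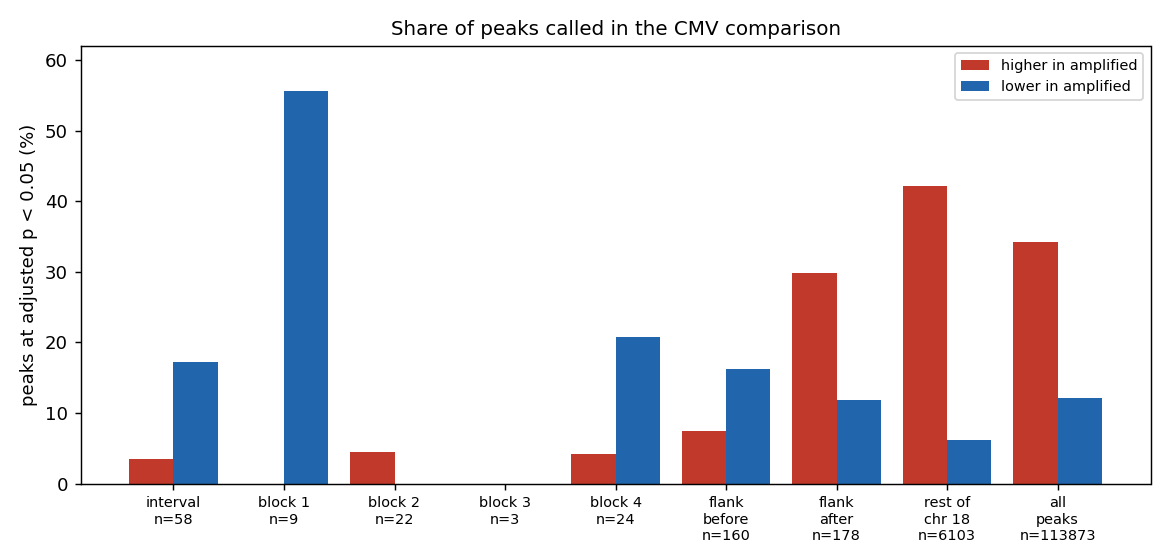
Percent of tested peaks with an adjusted p under 0.05 in the CMV comparison, higher (red) or lower (blue) in Nfib-amplified libraries, for the interval, its 4 blocks, the flanks, the rest of chromosome 18 and all peaks, with the number tested under each name. The interval shows 3.45% raised against 34.3% of all peaks.

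The median log2 fold change of the 58 members was -0.05, with quartiles of -0.55 and 0.76. It was -0.08 in the flank before, 0.34 in the flank after, 1.18 on the rest of the chromosome and 0.60 over all peaks. With 0.60 subtracted from every peak and the test recomputed, 1 member was higher (19.9% of all peaks) and 23 were lower (25.6% of all peaks). The second deposited test, read as one against an absolute log2 fold change of 0.5, called 0 members raised (19% of all peaks), with 2 at an unadjusted p under 0.05 (26.2% of all peaks), and 4 lowered (4.64% of all peaks). These counts depend on the bounds: with both moved in by 100 kb, which leaves 37 members, 2 were raised and 1 was lowered, and the median was 0.48.

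The 2 raised sites lay in blocks 2 and 4. The authors' deposited table gave chr18:37250881-37251381 a log2 fold change of 3.02 (SE 1.02, with adjusted p = 0.0096), an 8.13-fold difference, at a mean count of only 9.80. This site held a summit of the mixed pool and of neither other pool. For chr18:37994935-37995435 the authors' deposited table gave 1.82 (SE 0.54, with adjusted p = 0.00285), a 3.52-fold difference, at a mean count of 57.1. All 3 pools had a summit there. Centred on the median of all peaks, the second site no longer passed (adjusted p = 0.0514), and the first did (adjusted p = 0.0411).

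Block 1 held 5 of the lowered sites (55.6% of its 9 members), against 12.2% of all peaks and 16.2% of the flank before. Every member of it was below 0, as were 94 of the 160 peaks in that flank and 38545 of all 114043. The site of smallest adjusted p, chr18:36923959-36924459, had a log2 fold change of -2.39 (SE 0.41, with adjusted p = 2.272e-07) in the authors' deposited table, 5.24-fold lower in amplified libraries. Its neighbour 199 bases on, chr18:36924659-36925159, had -2.54 (SE 0.82, with adjusted p = 0.00636) in the authors' deposited table at a mean count of 8.69. A second close pair followed. Its first peak, chr18:36941954-36942454, had -1.76 (SE 0.41, with adjusted p = 1.363e-04) in the authors' deposited table, a 3.39-fold loss. The stronger partner, chr18:36942666-36943166 with a mean count of 118, had -0.58 (SE 0.21, with adjusted p = 0.0171), and chr18:36953263-36953763 had -0.55 (SE 0.20, with adjusted p = 0.0166), both in the authors' deposited table. The 4 members of block 1 that were not called ranged from -0.91 to -0.16. Centred on the median of all peaks, all 9 were lower, against 45% of the flank before and 25.6% of all peaks.

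The other lowered sites lay in block 4, 4 of them from position 38036773 onward. The share lowered was 20.8% of the 24 members of block 4, against 12.2% of all peaks and 11.8% of the flank after. In the authors' deposited table, chr18:38066497-38066997 had -2.43 (SE 0.71, with adjusted p = 0.00271), a 5.40-fold loss. A pair of sites 238 bases apart was lowered together: chr18:38037512-38038012 by a log2 fold change of -2.23 (SE 0.45, with adjusted p = 1.442e-05) and chr18:38036773-38037273 by -0.99 (SE 0.34, with adjusted p = 0.0112) in the authors' deposited table. The remaining 2 were smaller, with -1.08 (SE 0.43, with adjusted p = 0.0274) at chr18:37984529-37985029 and -0.75 (SE 0.32, with adjusted p = 0.0442) at chr18:38093174-38093674 in the authors' deposited table. Of the 10 lowered sites of the interval, 6 (60%) held a CMV-pool summit, 10 (100%) a CGRP-pool summit and 9 (90%) a mixed-pool summit. Over all lowered peaks those shares were 75.2%, 97.9% and 97.4%. No CGRP library took part in this comparison, and 11 of the CMV libraries are in the mixed pool. The summit counts are therefore a description only.

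Block 2 lay mostly above 0, with few single sites passing the test. Of its 22 members, 19 had a log2 fold change above 0 (86.4%, against 66.2% of all peaks), with a median of 0.80 and quartiles of 0.45 and 1.07. On the rest of chromosome 18, 79.3% of peaks were above 0, and the median of 1.18 was higher than that of the block. Against the genome median of 0.60, 13 lay above and 9 below. Only chr18:37250881-37251381 was raised and 0 were lowered. At an unadjusted p under 0.05, 2 members (9.09%) were higher and 0 were lower, against 39% and 14.5% of all peaks. The next highest, chr18:37580913-37581413, had 1.81 (SE 0.81, with adjusted p = 0.0523) in the authors' deposited table. The median SE of this block was 0.79, at which a log2 change needs to reach 1.56 to have an unadjusted p under 0.05. The strongest peak of the block, chr18:37424413-37424913 with a mean count of 87.7, had 0.44 (SE 0.52) in the authors' deposited table, with a 95% interval from -0.58 to 1.47.

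**Figure D3:**
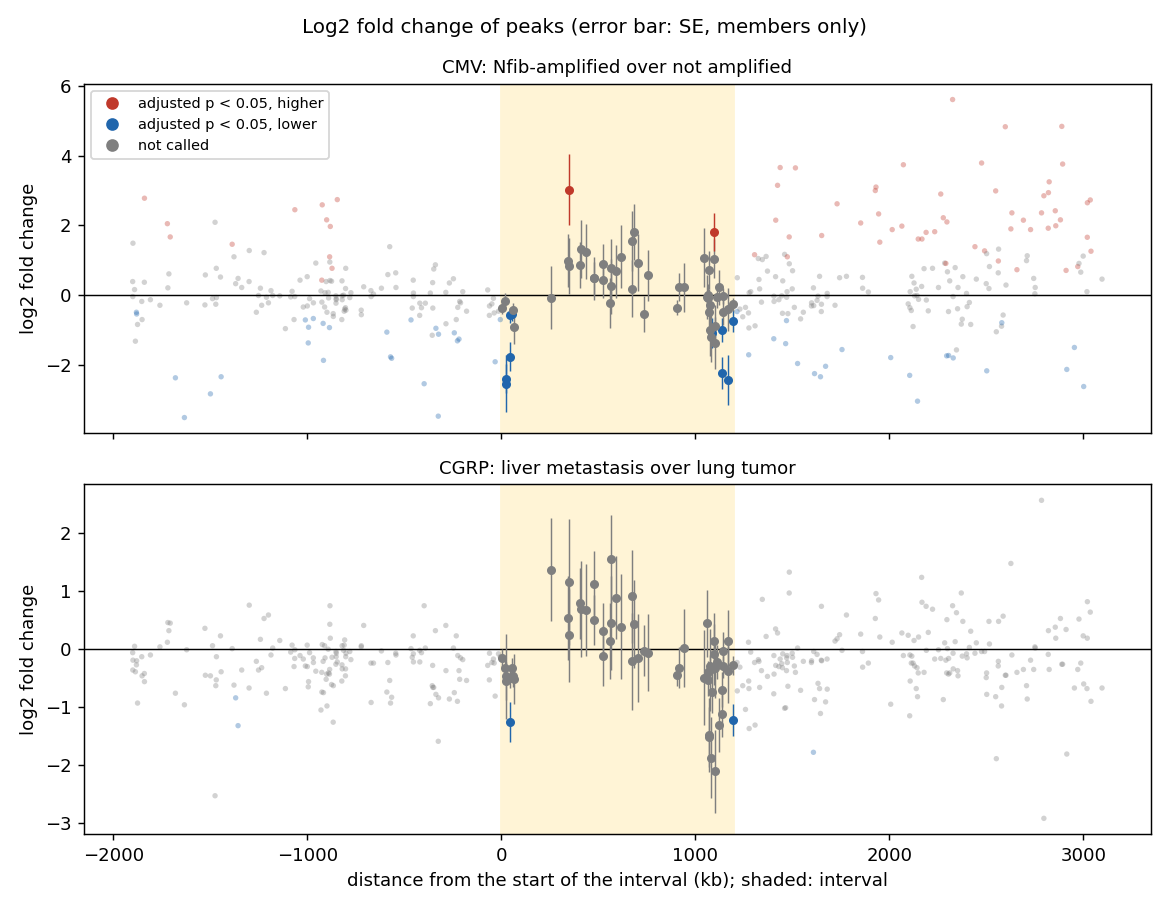
Log2 fold change of each peak in the CMV comparison (top) and the CGRP comparison (bottom) by distance in kb from the start of the interval, which is shaded. Members carry an error bar of 1 SE, flank peaks are the small points, and red and blue mark peaks with an adjusted p under 0.05. Both panels show values above 0 in the middle of the interval, where 19 (top) and 17 (bottom) of the 22 peaks of block 2 exceed 0, and values below 0 at its start, where all 9 peaks of block 1 lie below 0.

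The strongest sites of the interval had small changes on the authors' scale. The 9 members whose mean count reached 100 all had log2 fold changes between -0.58 and -0.02 (SE 0.18 to 0.23), and 2 of the 9 were lowered. Of all 11491 peaks with such a mean count, 51.4% were below 0, with a median of -0.02. The last member, chr18:38094937-38095437, had -0.26 (SE 0.18, with adjusted p = 0.246), and chr18:37965698-37966198 had -0.07 (SE 0.22, with adjusted p = 0.816), in the authors' deposited table. The others of the highest counts had -0.28 (SE 0.22, with adjusted p = 0.298) at chr18:37974266-37974766, -0.43 (SE 0.20, with adjusted p = 0.0748) at chr18:36961206-36961706 and -0.36 (SE 0.18, with adjusted p = 0.0765) at chr18:36903992-36904492 in the authors' deposited table. Block 3 held a like case in chr18:37803628-37804128, with a mean count of 152 and -0.36 (SE 0.21) in the authors' deposited table. Relative to the genome median of 0.60, all 9 were lower, as were 61.3% of the 11491 peaks of such mean count.

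In CGRP tumors, liver metastases differed from lung tumors at 2 sites of the interval, both lost. At an adjusted p under 0.05, 2 of 58 members (3.45%) were lowered, against 0.779% of the 105121 peaks with an adjusted p, and 0 were raised, against 0.0752%. At an unadjusted p under 0.05, 15 members (25.9%) were below 0 and 1 (1.72%) above, against 6.25% and 3.37% of all peaks. The flank before had 11.9% below and the flank after 13.5%. In the authors' deposited table, chr18:38093174-38093674 had a log2 fold change of -1.22 (SE 0.27, with adjusted p = 0.00362), 2.32-fold lower in metastases. The authors' deposited table gave chr18:36941954-36942454 -1.26 (SE 0.34, with adjusted p = 0.0315), 2.39-fold lower. These sites lie at opposite ends of the interval, and both were among the 10 lowered in the CMV comparison. With the bounds moved in by 100 kb neither remained in the interval.

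The median CGRP log2 fold change of the members was -0.21, with quartiles of -0.48 and 0.37, close to the flanks at -0.22 and -0.19, and 0.01 over all peaks. Blocks again ran in different directions. All 9 members of block 1 were below 0, with a median of -0.47, and 21 of 24 in block 4, with a median of -0.38. Most flank peaks were below 0 as well, 122 of 160 before the interval and 121 of 178 after it. In block 2, 17 of 22 were above 0 with a median of 0.48, against 51.1% of all peaks, and 0 passed the test (1 higher at an unadjusted p under 0.05). At the median SE of 0.76, a log2 change there needs to reach 1.48 to have an unadjusted p under 0.05.

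Among the members, block 4 held the lowest CGRP values that missed the threshold. Of its members, 7 had a log2 fold change under -1, and 1 of these was called. The share of all peaks under -1 was not computed. The lower quartile of the block was -1.15, against -0.53 in the flank before, -0.45 in the flank after and -0.35 over all peaks. The lowest member was -2.11 (SE 0.71, p = 0.00303, adjusted p = 0.147) at chr18:38002188-38002688 in the authors' deposited table. It was followed by -1.87 (SE 0.70, p = 0.00785, adjusted p = 0.233) at chr18:37982094-37982594 in the authors' deposited table. A pair of adjoining peaks came next, with -1.52 (SE 0.52, with adjusted p = 0.161) at chr18:37967774-37968274 and -1.48 (SE 0.64, with adjusted p = 0.360) at chr18:37968280-37968780 in the authors' deposited table. The 7 libraries of liver metastasis were all prepared in batch 2, with 7 of the lung tumors, and the other 4 lung tumors in batch 3. Within-batch values could not be computed from fitted tables.

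The same sites tended to lie on the same side of 0 in both comparisons. Of the 58 members, 27 were below 0 in both and 17 above 0 in both. All 10 sites lowered in the CMV comparison were below 0 in the CGRP comparison, from -1.26 to -0.33. Their median there was -0.62, and that of all peaks lowered in the CMV comparison was also below 0, at -0.19. The shares of all peaks that lie on the same side of 0 were not computed. Across the 58 peaks Pearson's r was 0.549 and Spearman's rho 0.638, against 0.153 and 0.171 over all peaks. In the flanks, r was 0.252 and 0.326. Within blocks Pearson's r was 0.471 in block 1 (9 peaks), 0.04 in block 2 (22 peaks), 0.695 in block 3 (3 peaks) and 0.331 in block 4 (24 peaks). Spearman's rho in the same order was 0.783, -0.126, 0.5 and 0.368. Neighbouring peaks are not independent, and the comparisons use different libraries.

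**Figure D4:**
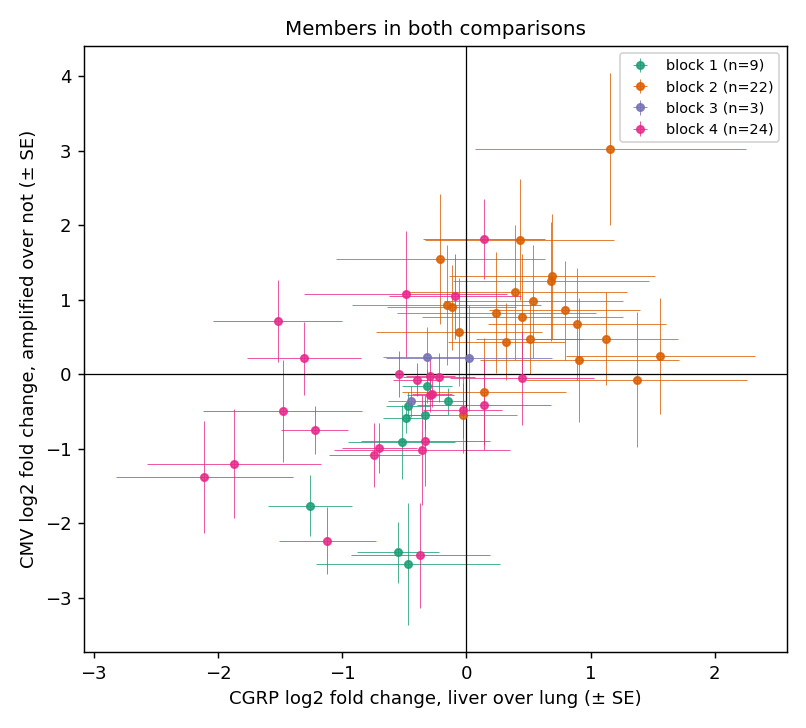
Log2 fold change of the 58 members in the CMV comparison against that in the CGRP comparison, with error bars of 1 SE and a colour for each block. Block 2 fills the upper right and block 1 the lower left, and 44 of the 58 points are on the same side of 0 on both axes (27 below and 17 above).

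A direct test of the difference between the comparisons, by a two-sided z test over all peaks with Benjamini-Hochberg adjustment, called 2 members. At chr18:36923959-36924459 the change was lower in the CMV comparison, by a difference of -1.84 (SE 0.53, with adjusted p = 0.00527), and 5.62% of all peaks were called in this direction. At chr18:37967774-37968274 it was higher in the CMV comparison, 0.72 (SE 0.55) against -1.52 (SE 0.52), a difference of 2.24 (SE 0.76, with adjusted p = 0.0210), and 17.8% of all peaks were called in this direction. This second call was lost after centring on the medians, when 0 members were higher and 5 lower in the CMV comparison, against 9.12% and 15.9% of all peaks. Over the 58 members the median difference was 0.11, against 0.54 over all peaks.

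Standard errors of block 2 stood above the middle of peaks of like mean count. Among the 1000 peaks of nearest mean count, the SE of a block 2 member stood at the 69.6th percentile in the CMV comparison (median over 22 members, range 29.1 to 97.8) and at the 67.2th in the CGRP comparison. The CMV medians of blocks 1, 3 and 4 were the 35.3th, 51.4th and 58.0th percentile. Those of the flanks were the 36.3th and 48.0th, and that of the rest of chromosome 18 the 58.5th. The highest values were not more frequent in block 2: 2 of its 22 members (9.09%) reached the 90th percentile, against 10.1% of all peaks. The SEs of both comparisons rank the peaks almost identically (Spearman's rho 0.996 over all peaks). Both follow the mean count, which the comparisons share, so this value alone does not show how far the spreads are separate. The percentiles of both comparisons were not taken as separate measurements of spread. The z test of the difference did add both SEs as if independent, with no allowance for a shared part.

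**Figure D5:**
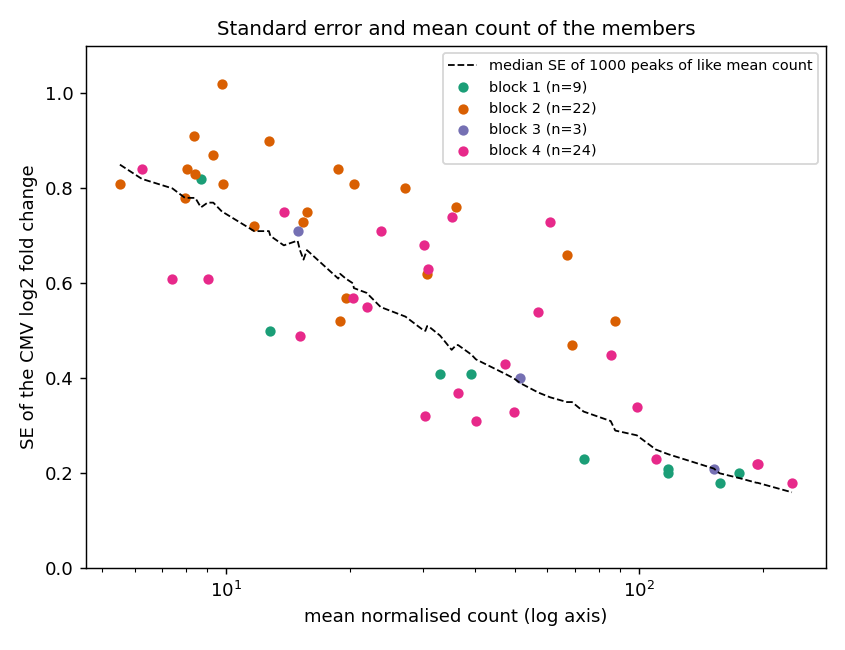
SE of the CMV log2 fold change of each member against its mean normalised count (log axis), with a colour for each block and the median SE of the 1000 peaks of like mean count as a dashed line. Most points of block 2 lie above the line and most points of block 1 below it, at medians of the 69.6th and 35.3th percentile.

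Peaks just outside the bounds were below 0, as were those just inside. The last peak before it, chr18:36894471-36894971, had a CMV log2 fold change of -0.70 (SE 0.19, with adjusted p = 0.00121) and the first inside, chr18:36903992-36904492, had -0.36 (SE 0.18), both in the authors' deposited table. At the other end, the last peak inside had -0.26 (SE 0.18) and the first beyond, chr18:38114340-38114840, had -0.47 (SE 0.20, with adjusted p = 0.0425) in the authors' deposited table. In the CGRP comparison these 4 peaks lay between -0.28 and -0.13 in the authors' deposited table.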

How the data were processed

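The submitters' processing notes name Bowtie2, MACS2, DESeq2 and build mm9, without roles or versions. The authors' summit score was taken to be a −log10 q-value, because the smallest one is 1.30. The mean normalised count is a signal the authors averaged over libraries, and each deposited table further gives a log2 fold change with its SE, a Wald score and p-values, raw and adjusted, under DESeq2's column names per the file headers. For covariates, shrinkage and the peak filter, nothing was given in the sources used here. The description of 1 not amplified library does not list the CMV table. The direction of each comparison rests on the tables' names.

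Peaks were joined by name and selected by centre, coordinates are 1-based, and counts of members use the authors' adjusted p under 0.05. An adjusted p was present for all 58 members in both tables. The z test treated both SEs as independent (their squares were added), and this independence was not tested. The 95% intervals are normal. Named peaks are all called members, the 5 highest mean counts, called differences and the top summit of each pool, with a few others chosen after their values were seen. Members, lists and tests were chosen with earlier results of these data known. No sequence is printed. Tests used scipy 1.17.1 and numpy 2.4.6 under Python 3.11.15, tables pandas 2.3.3, and figures matplotlib 3.10.9.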

Additional observations from a re-analysis of the deposited data

Results flagged for a closer look

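Summits of the interval that lie in no merged peak enter neither comparison. They numbered 27 in the CMV pool, 42 in the CGRP pool and 48 in the mixed pool, or 35.1%, 43.3% and 44.9% of the summits there, against 47.0%, 35.3% and 35% on chromosome 18 as a whole. Most were weak, with median scores of 5.67, 9.82 and 7.87. The strongest of each pool were within 250 bp of a merged peak, at 37974979 (score 70.6), 37974827 (233) and 36943223 (105). Farther from any merged peak, a CGRP summit at 37152589 had a score of 116, 4743 bp away, and a mixed-pool summit at 37901821 one of 37.5, 43816 bp away. No library was measured at these summits in the tables used here, so their change was not tested.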

How the results depend on the processing

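Counts of CMV members were 2 raised and 10 lowered. Raised members numbered 0 under the second deposited test, 1 after centring and 1 when only peaks of mean count 20 or more were kept. Lowered members numbered 5 at an adjusted p under 0.01, 4 under the second test, 23 after centring and 1 with the bounds moved in by 100 kb. The CMV median turned from -0.05 to 0.48 and the CGRP median from -0.21 to 0.14 with the bounds moved in. The CGRP count of 2 lowered members became 1 at 0.01, 0 under the second test (3 at an unadjusted p under 0.05, with 1.24% of all peaks) and 0 with the bounds moved in. Called differences in which the CMV change was higher went from 1 to 0 after centring, 0 at 0.01 and 3 at 0.1, and those in which the CGRP change was higher from 1 to 5 after centring and 2 at 0.1. Among the top 100000 summits of each list, the interval held 36 CMV, 57 CGRP and 48 mixed summits. Of CMV summits, 85.7% lay within 250 bp of a CGRP summit, against 85.2% in the flank before and 66.8% in the flank after. In the interval the share was 75.3% within 100 bp and 97.2% among the top 100000. Of CGRP summits, 63.9% lay within 250 bp of a CMV summit, against 69.1% and 70.4% in the flanks, and 73.2% within 500 bp. The cause of these shifts was not tested, beyond the smaller number of members or summits that a stricter choice leaves. For the 58 members in both comparisons (116 values), single calls were lost for 6 values at 0.01, 10 under the second test and 1 after centring, and gained for 3 at 0.1 and 13 after centring. Among these settings only centring can turn a sign, and no value that was called turned. The CMV SE percentile of block 2 was 70.7 with fewer and 70.8 with more peaks of nearest mean count, alternatives chosen after seeing the data. No paired analysis was possible because the tables hold fitted values and no value per library, and no library could be left out for the same reason.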

Other observations

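Neighbouring sites less than 1 kb apart formed 12 pairs in the interval, and several pairs had unequal values. At chr18:38066497-38066997 the authors' deposited table gave -2.43 (SE 0.71) in the CMV comparison, and 655 bases on, at chr18:38067653-38068153, it gave -0.41 (SE 0.61, adjusted p = 0.599). Only 5 bases separate chr18:37967774-37968274 from chr18:37968280-37968780, where the authors' deposited table gave 0.72 (SE 0.55) and -0.49 (SE 0.68) in the CMV comparison. Both of these had no CGRP-pool summit. In the CGRP comparison the same pair had -1.52 and -1.48 in the authors' deposited table. Differences within pairs were not tested, since both peaks were measured in the same libraries.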
